A study of Arabidopsis thaliana with 6 samples.

Results

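The genes described here are the 2 GOLDEN2-LIKE (GLK) transcription factors of Arabidopsis thaliana, 13 genes of chlorophyll synthesis and 21 genes of the light-harvesting antennae, 6 of photosystem I and 15 of photosystem II. They are 36 of the 38194 loci counted, picked by gene identifier for their known function (with earlier results of these data known), and all 36 were expressed well enough to be tested. Of these, 1 gene fell after 4 h of dexamethasone, GLK2 (AT5G44190), and it was lower in both its exon and its intron counts. Its exon call held under 11 of 17 alternative analyses and its intron call under 3 of 9. Over all genes tested 4.67% changed in exon counts and 0.939% in intron counts. GLK1 (AT2G20570), all 13 chlorophyll synthesis genes and all 21 antenna genes did not pass in edgeR. DESeq2 also called PORB, and over all genes it called 2045 of the 27637 it tested.

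Chlorophyll is made in plastids from glutamate along the tetrapyrrole pathway, whose chlorophyll branch begins where magnesium is inserted into protoporphyrin. The finished chlorophyll a and b are bound by the light-harvesting proteins, nuclear-encoded membrane proteins that pass absorbed light energy to the photosystems. In Arabidopsis GLK1 and GLK2, transcription factors of the GARP family, act redundantly to activate nuclear genes of both kinds, and plants lacking both are pale green.

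Seedlings were 12 days old and of a single genotype, 35S:GR-TCP5, in both groups. TCP5, a CIN-class TCP transcription factor of leaf development, is joined there to the glucocorticoid receptor and made from the 35S promoter, which is active in most cells of the plant, so that the ligand dexamethasone (DEX) allows the fusion to act in the nucleus. The DEX group (3 libraries) received DEX (labelled 10 mM), 0.1% ethanol and 0.015% of the wetting agent silwet for 4 h. The mock group (3 libraries) received ethanol and silwet at the same percentages for the same time. The labels give 22 °C and a cycle of 14 h light and 10 h dark for both groups. The native TCP5 gene was present in both groups, no plants without the construct were studied, and an effect of DEX itself cannot be told apart from one of the fusion protein. The labels do not say how many lines were used or whether each replicate was its own culture. The p-values therefore cover only the spread among these 6 libraries.

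The exon counts of a library ranged from 33428836 to 76859163. In both groups replicates 1 and 2 carry one date and lane in their descriptions and replicate 3 another; these are called the first and the second run. The tests have the run as a term unless stated otherwise. Levels are given in CPM (TMM-scaled counts relative to library size), and fold changes are log2 of DEX over mock with their standard error (SE). A pair of loci beside ribosomal RNA genes took 4.57%, 0.0836% and 0.106% of exon counts in DEX replicates 1 to 3 and 1.58%, 2.25% and 0.127% in mock replicates 1 to 3. The summed level of 14 root markers was 1.27, 0.165 and 58.3 CPM in DEX replicates 1 to 3 and 1.503, 1.77 and 131.7 CPM in mock replicates 1 to 3. In the first run 4 of the 14 were at 0 in every library (EXPA7, PLT1, PLT2 and MRN1). The labels name seedlings and no organ, so root transcripts were nearly lacking in that run from tissue labelled only as seedlings. TCP5 itself was at 233, 263 and 964 CPM with DEX and at 323, 296 and 1177 CPM with mock, and did not pass the test (log2 fold change −0.31 ± 0.10, edgeR adjusted p = 0.152).

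The upstream sequences of the regulator that fell, of its relative that did not pass, and of a pair of antenna genes are shown to compare the DNA in which factor-binding words were counted. They are the 250 bases before the annotated start, 5′ to 3′ on the gene's strand, from the TAIR10.1 RefSeq genome. Capitals mark matches, on either strand, to CCAATC and AGATTCT (words linked to GLK binding), CACGTG (the G-box of light-regulated genes) and GATAAG (the I-box). They also mark GTGGNCCC, a word bound by the class of TCP proteins that holds TCP5, and GGNCCC, the shorter core within it. The deposited files name no genome build, so chromosome and strand are given without positions.
GLK2, chromosome 5, plus strand: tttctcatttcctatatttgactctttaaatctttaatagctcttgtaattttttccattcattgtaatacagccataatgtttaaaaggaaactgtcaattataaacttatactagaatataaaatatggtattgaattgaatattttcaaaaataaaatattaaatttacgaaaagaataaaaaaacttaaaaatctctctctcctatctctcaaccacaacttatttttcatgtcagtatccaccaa
GLK1, chromosome 2, plus strand: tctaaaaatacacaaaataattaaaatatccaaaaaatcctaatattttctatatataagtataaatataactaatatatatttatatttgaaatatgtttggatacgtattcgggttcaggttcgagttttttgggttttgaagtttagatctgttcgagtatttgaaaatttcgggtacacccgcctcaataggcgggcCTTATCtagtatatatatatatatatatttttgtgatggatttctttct
LHCB1.3, chromosome 1, plus strand: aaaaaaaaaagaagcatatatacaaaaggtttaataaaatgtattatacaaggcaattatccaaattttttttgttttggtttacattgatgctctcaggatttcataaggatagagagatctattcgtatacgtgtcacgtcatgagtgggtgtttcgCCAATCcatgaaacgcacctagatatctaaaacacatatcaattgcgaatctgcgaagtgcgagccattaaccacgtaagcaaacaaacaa
LHCB4.1, chromosome 5, plus strand: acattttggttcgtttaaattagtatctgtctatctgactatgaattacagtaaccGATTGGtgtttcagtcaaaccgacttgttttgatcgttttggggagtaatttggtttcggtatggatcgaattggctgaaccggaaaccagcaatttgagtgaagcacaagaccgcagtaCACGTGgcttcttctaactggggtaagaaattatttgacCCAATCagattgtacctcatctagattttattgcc

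None of these words is in the GLK2 window, and the GLK1 window holds 1 I-box, read on the other strand, 49 to 44 bases before the start. In LHCB1.3 a CCAATC lies 91 to 86 bases before the start. LHCB4.1 has that word on the opposite strand (194 to 189 bases before the start) and on its own strand (35 to 30 bases), with a G-box between them (74 to 69 bases). Over the 36 genes CCAATC was in 12 windows (33.3%) and over the 21 antenna genes in 10 (47.6%), against 10.2% of 27443 protein-coding genes. The G-box was in 7 of the 36 (19.4%), against 6.49% of protein-coding genes. GGNCCC was in 6 of the 36 (16.7%), against 7.35%, and GTGGNCCC in 1 (2.78%), that of PORA, against 0.67%. AGATTCT was in 4 (11.1%), against 6.22%, and GATAAG in 6 (16.7%), against 12.3%. These are counts of letters and show no binding. For GLK1 and GLK2 the gene length in the files differs from that in this annotation, so the start used by the authors may lie elsewhere.

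The first comparison asked whether the 2 regulators differed between DEX and mock. GLK2 was at 119.8, 94.4 and 39.9 CPM in DEX replicates 1 to 3 and at 156, 176 and 70.3 CPM in mock replicates 1 to 3. Every DEX library was below every mock library of its own run, as in 17.8% of all genes tested. The first-run DEX libraries were above the second-run mock library. The DEX libraries averaged 84.7 ± 40.8 CPM and the mock libraries 134 ± 56.2 CPM (SD, n = 3 each), an SD that includes the difference between runs. The log2 fold change was −0.69 ± 0.12, a level 0.618 times that of mock, with a 95% interval of −0.96 to −0.43, and GLK2 fell (edgeR quasi-likelihood adjusted p = 0.0177). The log2 fold change was −0.82 within the second run and −0.63 within the first, and the difference between runs did not pass (interaction adjusted p = 0.926 in edgeR). In the first run alone the adjusted p was 0.0709, and it lay between 0.0780 and 0.0944 when replicate 2 or 3 of either group was left out.

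GLK1 was at 101, 66.8 and 45.7 CPM with DEX and at 81.6, 84.5 and 34.9 CPM with mock, and the groups overlapped in the first run. Its log2 fold change of 0.13 ± 0.16 did not pass (95% interval −0.25 to 0.52, edgeR adjusted p = 0.728). Without DEX replicate 1 the value was −0.01. The genes' coding sequences are 55.9% identical over their alignment and neither overlaps another annotated locus.

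Divided by gene length, GLK2 was at 1.201, 1.43 and 0.883 times the level of GLK1 in DEX replicates 1 to 3 and at 1.94, 2.104 and 2.03 times in mock replicates 1 to 3. This ratio did not overlap between the groups, also across runs. It was computed after both genes' levels were known and was not tested. The ratio restates the lower GLK2 level in the same 6 libraries and is no separate support for it. How often ratios of other gene pairs separate the groups was not counted.

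**Figure D1:**
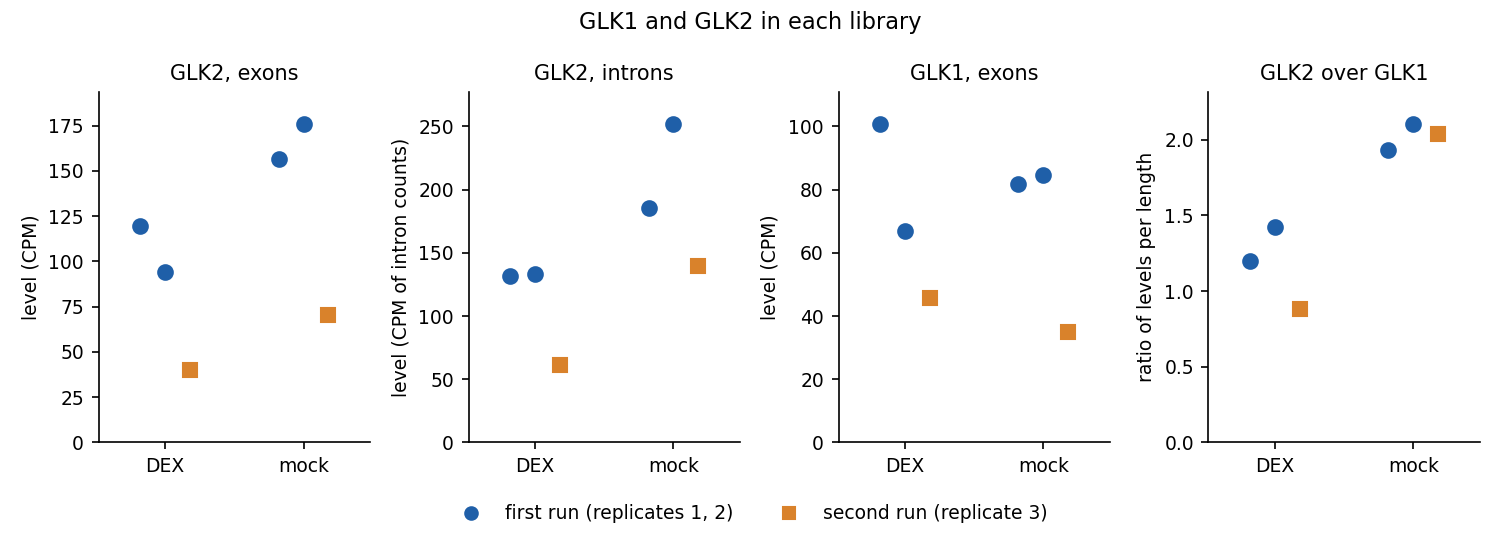
Level of GLK2 in exon counts, of GLK2 in intron counts and of GLK1 in exon counts (CPM, linear axes from 0), and the ratio of GLK2 to GLK1 per length, with DEX on the left and mock on the right of each panel. Each point is 1 library, circles for the first run and squares for the second; GLK2 in DEX libraries lies below the mock libraries of the same run, and the ratio is 0.883 to 1.43 with DEX against 1.94 to 2.104 with mock.

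Intron counts, reads from transcripts not yet spliced or from retained introns, gave a second readout of the same libraries. GLK2 had 208, 228 and 40 intron counts with DEX and 361, 509 and 83 with mock, or 131.8, 133 and 60.9 CPM against 185, 252 and 139 CPM of intron counts. Each DEX library was below the mock libraries of its run here too, but the share of all genes so ordered in intron counts was not counted. The intron log2 fold change was −0.84 ± 0.18 (edgeR adjusted p = 0.0333). With replicate number added as a block, that call was lost (adjusted p = 0.0639). It was also lost when any DEX replicate or mock replicate 2 or 3 was left out, with log2 fold changes from −0.88 to −0.72 and adjusted p from 0.0668 to 0.267 (edgeR). GLK1 intron counts did not pass (0.22 ± 0.24, edgeR adjusted p = 0.857). Of the 27 genes of the set with enough intron counts, 1 fell (GLK2), none rose and 26 did not pass in edgeR. Over all 12989 genes tested 0.616% fell and 0.323% rose. An unadjusted p under 0.05 was found for 2 of the 27, against 1219 of the 12794 genes tested in both readouts (edgeR). The intron log2 fold changes ran from −0.84 to 0.57 with a median of −0.09, against 0.01 over all genes. GLK2 passed in both readouts, as did 0.563% of the 12794 genes tested in both. LHCB1.4, LHCA3 and GUN4 had no intron counts in any library. In the TAIR10.1 annotation LHCB1.4 and GUN4 have 1 coding exon, as has LHCB1.2, which was tested on 88 intron counts.

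**Figure D2:**
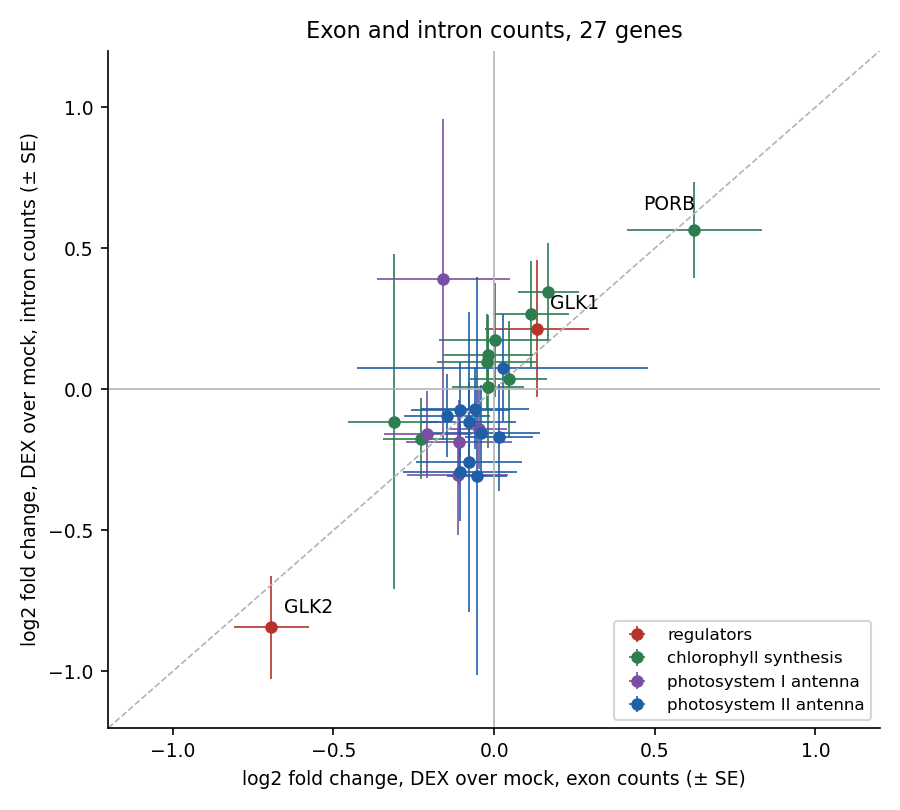
Log2 fold change of DEX over mock in exon counts (horizontal) against intron counts (vertical) for the 27 genes tested in both, with bars of 1 SE and a dashed line of equal change. GLK2 lies at −0.69 and −0.84 and PORB at 0.62 and 0.57, apart from the other 25 genes; both axes use the same libraries.

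The next comparison asked whether the 13 chlorophyll synthesis genes, among them known targets of the GLK proteins, differed after 4 h. In edgeR 0 of 13 rose and 0 fell, against 1.09% and 3.58% of all 21934 genes tested, and 1 (PORB) had an unadjusted p under 0.05, against 19.0% of all genes. Their log2 fold changes ran from −0.31 to 0.62 with a median of 0.00, the same as over all genes.

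At the head of the pathway, HEMA1 encodes glutamyl-tRNA reductase, the enzyme of the first committed step. HEMA1 (AT1G58290) was at 313, 263 and 122 CPM with DEX and at 295, 334 and 196 CPM with mock. DEX replicate 1 lay between the first-run mock libraries, and the other DEX libraries lay below the mock libraries of their runs. The log2 fold change was −0.31 ± 0.14 (95% interval −0.64 to 0.01, edgeR adjusted p = 0.284). With replicate 3 of the DEX group left out it was −0.12, and with that of the mock group left out −0.13.

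Magnesium chelatase, which opens the chlorophyll branch, is made of the products of CHLH, CHLD and CHLI1 or CHLI2, and GUN4 stimulates it. CHLH (AT5G13630), the porphyrin-binding subunit, was at 2159, 1838 and 646 CPM with DEX and at 2205, 2270.5 and 827 CPM with mock. Every DEX library was below the mock libraries of its run, as in 17.8% of all genes. The log2 fold change of −0.23 ± 0.12 did not pass (edgeR adjusted p = 0.361). CHLD, CHLI1 and CHLI2, which encode the other subunits, had log2 fold changes of 0.12, −0.02 and 0.08. GUN4 (AT3G59400) was at 132, 87.3 and 52.2 CPM with DEX and at 96.7, 121 and 76.0 CPM with mock (the groups overlapped in the first run), for a log2 fold change of −0.17 ± 0.20 (edgeR adjusted p = 0.722). GUN4 overlaps AT3G59410, which held more exon counts than GUN4 in every library. The kit does not mark strand, so reads from the shared stretch cannot be assigned to either gene, and their number was not measured.

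CHLM, the methyltransferase that acts on magnesium protoporphyrin, and CRD1, a subunit of the cyclase that closes the fifth ring, had log2 fold changes of 0.05 and −0.02. The next step, reduction of protochlorophyllide in light, is carried by PORA, PORB and PORC. PORB (AT4G27440) was at 677, 422 and 573 CPM with DEX and at 283, 349 and 476 CPM with mock. Every DEX library was above the mock libraries of its run, as in 14.7% of all genes. The log2 fold change was 0.62 ± 0.21 (95% interval 0.13 to 1.12), the largest in size among the genes of the set that did not pass, with an edgeR adjusted p of 0.168 (0.0212 unadjusted). DESeq2 called it (adjusted p = 0.0378). Without DEX replicate 1 the value was 0.36, and it lay between 0.49 and 0.81 without any one of the other libraries (edgeR). Its intron counts gave 0.57 ± 0.17 (edgeR adjusted p = 0.168). Its exon log2 fold change was 0.27 within the second run and 0.80 within the first. PORB overlaps AT4G27450, whose exon counts came to 10.1% of its own.

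PORC (AT1G03630), the reductase of green tissue, was at 234, 188 and 79.6 CPM with DEX and at 175, 197 and 108 CPM with mock, with overlapping groups in the first run and a log2 fold change of −0.02 ± 0.15 (edgeR adjusted p = 0.956). PORA (AT5G54190), the form known from dark-grown seedlings, had the lowest level per length of the 36 genes, at 0.787, 0.361 and 3.76 CPM with DEX and 0.314, 0.458 and 3.93 CPM with mock (0.32 ± 0.36, edgeR adjusted p = 0.707). It separated the runs rather than the groups, being 8.17-fold higher in the second. The coding sequences of PORA and PORB are 83.3% identical over the shorter one, so their reads may not be fully told apart.

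CHLG, which attaches the phytol tail, had a log2 fold change of 0.17. CAO (AT1G44446), the oxygenase that converts chlorophyll a to b, was at 255, 187 and 55.3 CPM with DEX and at 180.1, 199 and 75.3 CPM with mock. DEX replicate 1 lay above the first-run mock libraries, DEX replicate 2 between them and DEX replicate 3 below mock replicate 3, for a log2 fold change of 0.00 ± 0.18 (edgeR adjusted p = 0.996).

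The antenna genes were then compared. None of the 21 rose or fell in edgeR, against 1.09% and 3.58% of all genes, and 0 had an unadjusted p under 0.05, against 19.0%. Of the 21 log2 fold changes 18 were below 0, by at most 0.21, and the median was −0.08. Over all 21934 genes tested 10809 were below 0, with a median of 0.00.

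LHCA1 to LHCA4 encode the main antenna of photosystem I, and LHCA5 and LHCA6 encode minor proteins that link photosystem I to the NDH complex. All 6 had log2 fold changes below 0, from −0.21 to −0.05 with a median of −0.11. LHCA2 (AT3G61470) was at 3074, 2445 and 2373 CPM with DEX and at 2927, 3073 and 3090.4 CPM with mock (−0.21 ± 0.14, 95% interval −0.52 to 0.11, edgeR adjusted p = 0.474). DEX replicate 1 was at about the level of mock replicate 2, and the other DEX libraries were below the mock libraries of their runs. LHCA3 (AT1G61520) was at 2896, 2257 and 2422 CPM with DEX and at 2477, 2688 and 3018 CPM with mock (−0.11 ± 0.14, edgeR adjusted p = 0.751). LHCA6 (AT1G19150) was at 80.2, 59.5 and 28.5 CPM with DEX and at 61.8, 66.8 and 47.6 CPM with mock (−0.16 ± 0.21, edgeR adjusted p = 0.751). For both, DEX replicate 1 was above the mock libraries of its run and the other DEX libraries were below theirs.

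In photosystem II, LHCB1, LHCB2 and LHCB3 proteins form the trimers of the major antenna, and LHCB4, LHCB5 and LHCB6 are its single-protein links to the core. The 15 log2 fold changes ran from −0.18 to 0.03 with a median of −0.06. LHCB1.3 (AT1G29930) had the highest level per length of the set, at 10331, 7851 and 9000.3 CPM with DEX and at 8337, 10195 and 9576 CPM with mock (−0.05 ± 0.15, edgeR adjusted p = 0.905). LHCB1.5 (AT2G34420) was at 7879, 5948 and 6059.9 CPM with DEX and at 7187, 7501 and 7824 CPM with mock (−0.18 ± 0.15, 95% interval −0.53 to 0.16, edgeR adjusted p = 0.584). In both genes the highest and the lowest first-run value belonged to a DEX library. LHCB1.5 shares practically all its counts with the overlapping locus AT2G08665 (460376 and 460381 in DEX replicate 1).

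LHCB4.1 (AT5G01530) was at 2547, 2051 and 2041 CPM with DEX and at 2298, 2542 and 2494 CPM with mock (−0.15 ± 0.13, 95% interval −0.45 to 0.16, edgeR adjusted p = 0.626). LHCB4.2 (AT3G08940) was at 1164, 841 and 530.1 CPM with DEX and at 913, 1039.8 and 737 CPM with mock (−0.13 ± 0.17, edgeR adjusted p = 0.737). Both proteins are forms of CP29, and for both the first-run DEX libraries lay on either side of the mock libraries. The other 11 genes of this antenna had log2 fold changes from −0.11 (LHCB3) to 0.03 (LHCB1.1), and LHCB7, a rarely used relative, had the lowest level per length among them.

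LHCB1.1 to LHCB1.3 share 95.6% to 96.4% of their coding bases, LHCB1.4 and LHCB1.5 92.1%, and LHCB2.1 and LHCB2.2 92.9% of the shorter sequence, so the counts of single copies are uncertain. Summed before the test, the log2 fold changes were −0.04 ± 0.16 for LHCB1.1 to LHCB1.3, −0.16 ± 0.16 for LHCB1.4 and LHCB1.5 and −0.05 ± 0.18 for LHCB2.1 and LHCB2.2, and none passed in edgeR (adjusted p = 0.925, 0.661 and 0.919).

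Per length, the mean level over the 6 libraries (RPKM, from CPM and the deposited gene length) was 7492 for LHCB1.3, 6762 for LHCB1.5 and 3804 for LHCB1.2, the 3 highest of the set. Among the synthesis genes it was highest for CRD1 (994 RPKM), and the regulators were at 65.7 RPKM (GLK2) and 41.02 RPKM (GLK1).

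Over all 36 genes, 11 log2 fold changes were above 0 and 25 below, with a median of −0.05 against 0.00 over all genes. Of all 21934 genes tested 11125 were above 0 and 10809 below. For 33 of the 36 the 95% interval of the fold lay within 2-fold in either direction, as for 78.1% of all genes, and for 28 within 1.5-fold, as for 58.7%. The intervals of PORB, PORA and LHCB2.3 reached past 2-fold, that of LHCB2.3 running from −1.16 to 1.21. LHCB2.3, named after its values were seen, was at 808, 418 and 146 CPM with DEX and at 365, 483 and 296 CPM with mock, with the highest value in DEX replicate 1 and the lowest in DEX replicate 3. Every DEX library was below the mock libraries of its run in 2 genes (GLK2 and CHLH), as in 17.8% of all genes, and above them in 1 (PORB), as in 14.7%.

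**Figure D3:**
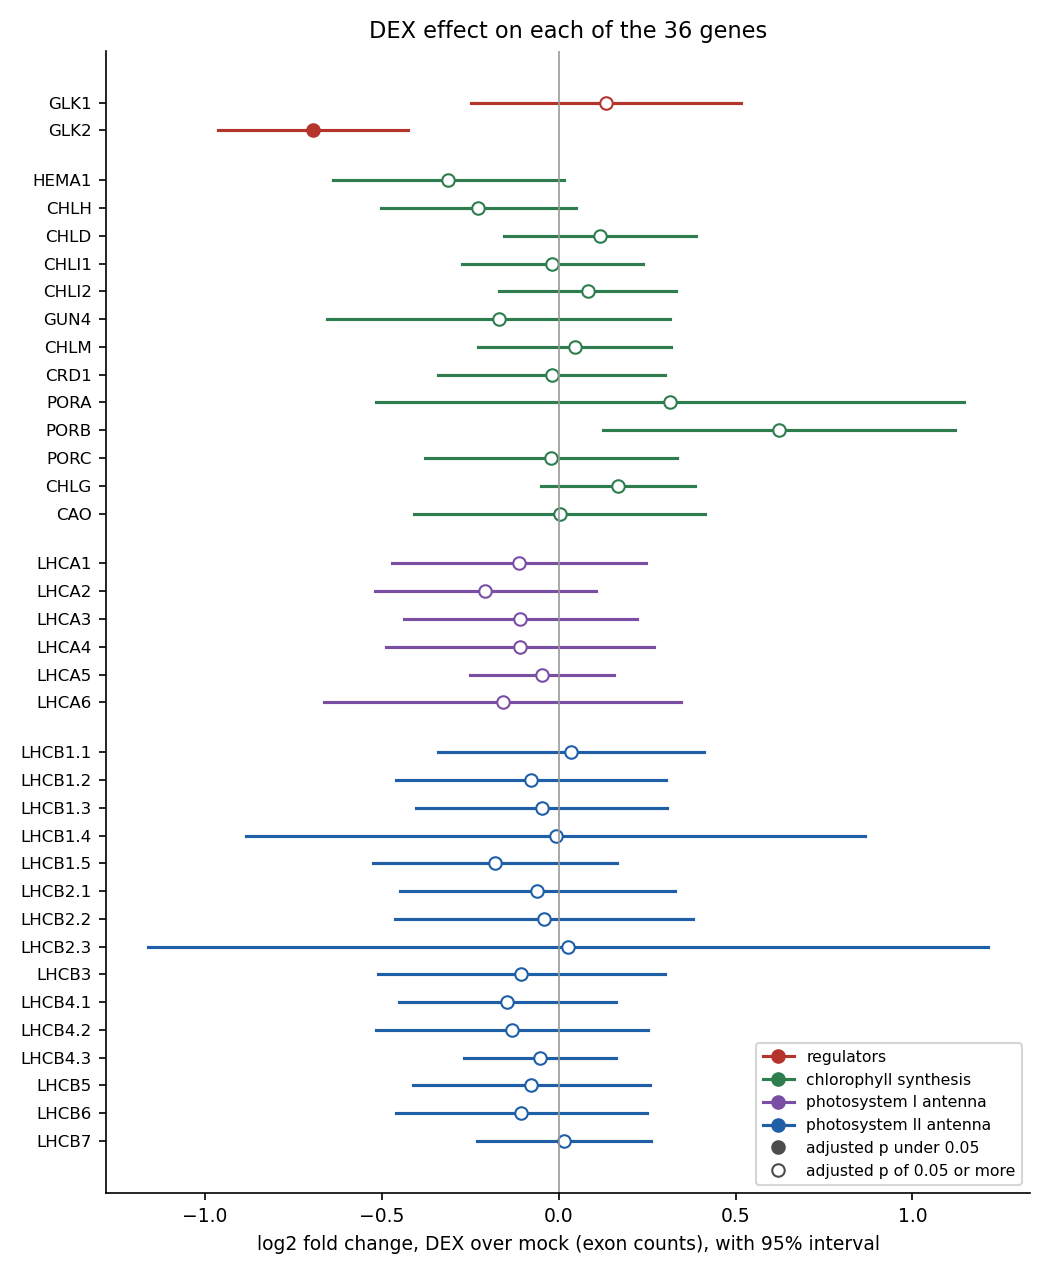
Log2 fold change of DEX over mock for each of the 36 genes in exon counts (horizontal axis), with bars for the 95% interval, grouped by role from the regulators at the top to the photosystem II antenna. The filled point, GLK2, had an edgeR adjusted p under 0.05; the open points of the other 35 genes lie between −0.31 and 0.62.

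The genes varied together between libraries of the same group. In the first run DEX replicate 1 was above DEX replicate 2 in 13 of 13 chlorophyll synthesis genes and in 20 of 21 antenna genes, where the median ratio was 1.35. Mock replicate 1 was below mock replicate 2 in all 13 and all 21, with a median ratio of 0.899 in the antenna genes. Genes of the photosystem cores did the same. There DEX replicate 1 was above DEX replicate 2 in 21 of 21, and mock replicate 1 below mock replicate 2 in 21 of 21. The share over all genes was not counted, so these orders are not shown to be particular to these genes.

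The 15 photosystem II antenna genes summed to 47573, 34587 and 33502 CPM in DEX replicates 1 to 3 and to 37627, 43721 and 39911 CPM in mock replicates 1 to 3. For the 6 photosystem I antenna genes the sums were 14884, 11348 and 10484 CPM with DEX and 12664, 13733 and 13535 CPM with mock. The 13 synthesis genes summed to 6949, 5583 and 3158 CPM with DEX and to 5788, 6391 and 3528 CPM with mock. In each sum the first-run mock libraries lay between DEX replicate 1, the highest of that run, and DEX replicate 2, the lowest of that run. The share of counts at the loci beside ribosomal RNA genes had the same first-run order, from DEX replicate 1 to mock replicate 2, mock replicate 1 and DEX replicate 2, and its part in these sums was not tested. With the pair of loci left out of the counts GLK2 still fell and no other gene of the set passed.

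**Figure D4:**
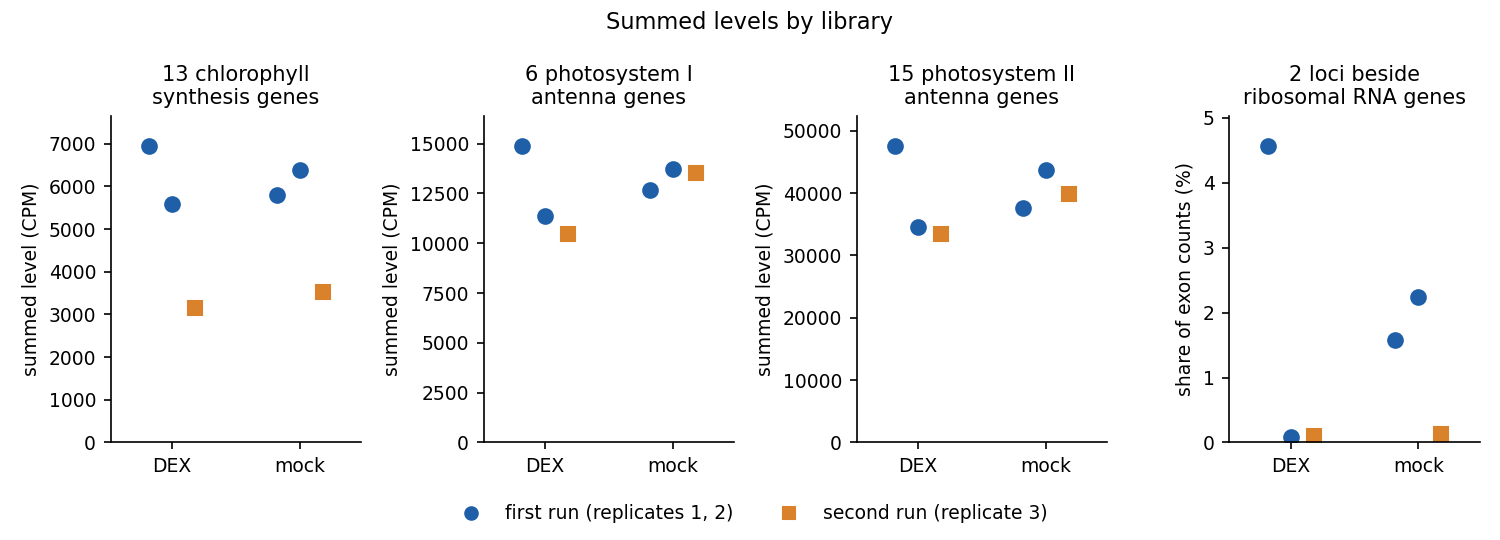
Summed level per library of the 13 chlorophyll synthesis genes, the 6 photosystem I and the 15 photosystem II antenna genes (CPM), and the share of exon counts at the loci beside ribosomal RNA genes (percent), with DEX left of mock and linear axes from 0. Points are single libraries, circles for the first run and squares for the second; in every panel the first-run mock libraries lie between DEX replicate 1 and DEX replicate 2.

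Within the second run, with 1 library a group, 31 of the 36 log2 fold changes were below 0, with a median of −0.32. Over all 21934 genes tested 10952 were below 0 in that run, with a median of 0. In the antenna genes DEX replicate 3 was at a median of 0.791 times mock replicate 3. The root markers of that run summed to 58.3 CPM with DEX and to 131.7 CPM with mock, and their part was not tested. Within the first run 25 of the 36 were above 0, with a median of 0.03, against 10947 of all 21934 genes, with a median of −0.0005. The difference of the DEX effect between runs passed for 0 of the 36 genes in edgeR and in DESeq2, as for 0% of all genes in edgeR. LHCA6 and PORC, 2 of the 36, had an unadjusted p under 0.05 (0.0172 and 0.0424), as did 6.55% of all genes. In seedling RNA of this kind, fewer green cells and less RNA per green cell cannot be told apart.

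More genes differed between runs than between treatments. In the second run 21 of the 36 genes were lower and 1 higher than in the first, and 14 did not pass, against 27.6% lower and 27.9% higher, 55.5% in all, over all genes (edgeR, run term). The median log2 fold change of the second run over the first was −0.63 for the set and −0.04 over all genes. Of the synthesis genes 11 of 13 were lower, with log2 fold changes of −1.65 for CAO and −1.53 for CHLH, and only PORA was higher. Both regulators were lower (−1.06 for GLK1 and −1.33 for GLK2). Among the antenna genes 8 of 21 were lower, LHCB4.3 by most (−1.41), while 13 did not pass, LHCB1.3 among them (0.02). The summed level of the root markers was near 0 in the first run only, with WOX5 and MRN1 low in both runs, and all 12 listed clock genes differed between runs, with log2 fold changes of −3.28 for LHY and 4.22 for ELF4. Harvest time, organ and run cannot be told apart in these samples.

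**Figure D5:**
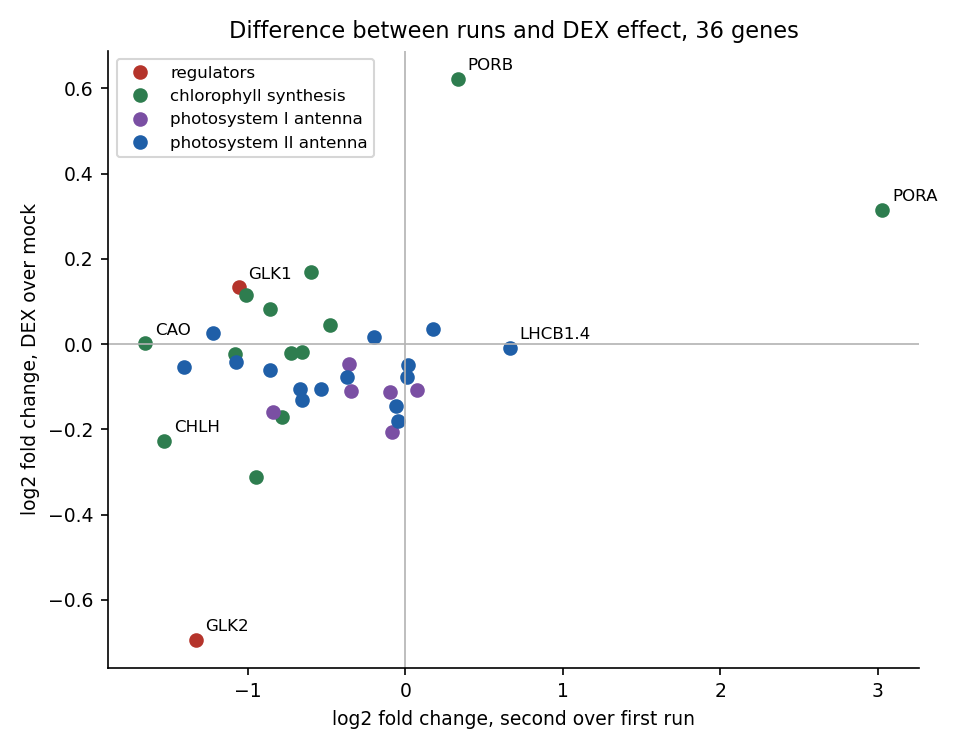
Log2 fold change of the second over the first run (horizontal) against log2 fold change of DEX over mock (vertical) for the 36 genes in exon counts, coloured by role. Most genes spread between −1.65 and 0.67 along the horizontal axis and within 0.32 of 0 along the vertical one, with GLK2 below at −0.69, PORB above at 0.62 and PORA at the right at 3.03.

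Other genes of the pathway and of greening were set beside these. Of 22 further tetrapyrrole synthesis genes 0 changed in edgeR (median log2 fold change 0.07), against 4.67% of all genes. Of 11 chlorophyll breakdown genes 0 changed (median −0.14). Neither did any of 7 stress-induced relatives of the antenna proteins (median −0.13), 21 nuclear photosystem core genes (median −0.09, 20 of 21 below 0) or 4 genes of the Rubisco small subunit (median −0.09). Of all 21934 genes 10809 had a log2 fold change below 0. At an unadjusted p under 0.05, 1 breakdown gene and 1 stress-induced relative were lower and no gene of the other 3 lists differed. Of all genes, 19.0% were under that threshold.

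Of 15 regulators of greening 1 fell and 14 did not pass in edgeR, against 3.58% of all genes that fell. At an unadjusted p under 0.05, 4 were lower and 1 higher, against 19.0% of all genes in either direction. SIG5, a plastid sigma factor that directs transcription of photosystem genes in the plastid, was at 35.7, 33.9 and 20.9 CPM with DEX and at 51.4, 51.7 and 28.1 CPM with mock. Its DEX libraries were below the mock libraries of their runs, as in 17.8% of all genes. The log2 fold change was −0.52 ± 0.08 (edgeR adjusted p = 0.0140). HY5, the bZIP factor that promotes greening in light, had a log2 fold change of −0.54 ± 0.16 and did not pass (edgeR adjusted p = 0.102). Neither did GNC (0.10 ± 0.10, adjusted p = 0.659) or CGA1 (−0.28 ± 0.27, adjusted p = 0.653), GATA factors that promote chloroplast development (edgeR). Of 12 clock genes RVE1 rose (0.79 ± 0.16, edgeR adjusted p = 0.0325) and PRR9 fell (−0.73 ± 0.12, edgeR adjusted p = 0.0159), and 10 did not pass, against 1.09% of all genes that rose and 3.58% that fell. Of the 14 root markers 6 were tested and 1 fell, against the same 3.58%: THAS1, at 0, 0 and 0.829 CPM with DEX and at 0.219, 0.0785 and 14.2 CPM with mock (edgeR adjusted p = 0.00628).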

How the data were processed

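The members and lists were chosen with earlier results of these data known. RNA came from DEX- and mock-treated seedlings, 3 libraries each, made with a TruSeq v2 kit (unstranded), per the labels' protocols. The DEX dose is labelled 10 mM; doses in this kind of experiment are commonly micromolar, and the unit was not checked. Raw counts per gene in exons and introns, and gene length under another unit, were deposited by the authors, per the file headers. Per the submitters' processing notes, STAR and DESeq2 were used. Which counter, genome build and tool versions were used is not given in the sources used here. Of exon counts from 1 to 20, 16.6% to 25.8% were odd, so counts may not be independent fragments. Introns held 2.07% to 2.57% of counts.

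Exon and intron counts were each tested in R 4.3.3 with edgeR 4.0.16 (scaling by TMM, filterByExpr with a minimum count of 10 and total of 15, robust quasi-likelihood F-test, run and treatment as terms, all 6 libraries), adjusted by Benjamini-Hochberg over all genes tested, at 0.05. The run-by-treatment interaction left 2 residual degrees of freedom. Alternatives were DESeq2 1.42.0, limma-voom 3.58.1, other scalings, no filter on low counts, omission of the run term, the first run alone, a block for the replicate number, exon plus intron counts, summed near-identical copies, omission of the loci beside ribosomal RNA genes, and each library left out. The test was also run on simulated counts drawn independently for each gene and library. Those lack the shared variation and the low share of odd counts seen here, and no result given here rests on them. Levels per length divide CPM by the deposited length. Names, overlaps and sequences were read from RefSeq TAIR10.1, where all 36 genes were found, 25 with the deposited exon length; 17 overlap another locus. Values per library are given for the regulators, genes that passed, the 3 smallest adjusted p of each antenna and the enzymes, HEMA1, CHLH, GUN4, PORA, PORB, PORC, CAO, and the extremes of level per length. Of other lists, up to 4 genes that passed are named, with HY5, GNC and CGA1; the clock and root values by run were chosen after they were seen.

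Deviations from the group mean correlated over genes between same-numbered libraries (r = 0.627, 0.607 and 0.879), which meets the rule for pairing, so the block is reported. The crossed first-run pairs had a higher r (0.688 for DEX 1 with mock 2 and 0.686 for DEX 2 with mock 1), so the data show a pairing by run only. No library duplicated another (lowest chi-square per degree of freedom 28.5).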

Additional observations from a re-analysis of the deposited data

How the results depend on the processing

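GLK2 kept its direction under 17 of 17 alternatives in exon counts and passed under 11. Its log2 fold change was −0.63 in the first run alone and −0.66 with no run term (edgeR adjusted p = 0.999), −0.61 to −0.81 over the choices of a library left out, and it passed only without DEX replicate 1 or mock replicate 1 among those. With the replicate number as a block GLK2 still passed in exon counts, and its intron value was −0.84 without passing. Its intron values ran from −1.02 to −0.72 with 1 library left out and passed only without mock replicate 1. Genes of the set that passed in exon counts numbered 2 in DESeq2 (GLK2 and PORB), 0 in the first run alone, 0 with no run term and 0 to 1 with 1 library left out. In intron counts they numbered 2 with no filter on low counts (GLK2 and PORB), 0 with the replicate block and 0 to 1 with 1 library left out. Over all genes the exon calls numbered 1024 of 21934 tested, against 2045 of 27637 in DESeq2. They numbered 571 with the replicate block (546 shared) and 279 to 1132 with 1 library left out. With no run term there were 0 (798 at an unadjusted p under 0.05). Intron calls numbered 122, against 326 with no filter and 40 to 106 with 1 library left out, and interaction calls 0, against 42 in DESeq2. The replicate block changed no other call on a gene of the set.

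The other 35 genes kept their sign in 503 of 588 exon values, with 1 past the threshold. Among the genes given with values per library, signs turned, with no value past it, in the first run alone for GUN4 (0.020), LHCA3 (0.0053), LHCA6 (0.13), LHCB4.2 (0.047) and PORC (0.19), for PORC with no run term (0.064), and for CAO in limma-voom (−0.035) and with the block (−0.0097). With 1 library left out they turned for CAO (−0.19, −0.10 and −0.020, within −0.19 to 0.23), GLK1 (−0.014, within −0.014 to 0.33; introns −0.10, within −0.10 to 0.54), GUN4 (0.022 and 0.010, within −0.41 to 0.022), LHCA3 (0.0072, within −0.24 to 0.0072), LHCA6 (0.13 and 0.12, within −0.36 to 0.13), LHCB1.3 (0.060 and 0.037, within −0.17 to 0.060), LHCB4.2 (0.049 and 0.037, within −0.32 to 0.049), PORA (−0.074, within −0.074 to 0.57) and PORC (0.018, 0.19 and 0.18, within −0.17 to 0.19). Signs also turned in other genes of the set, among them LHCB1.4 (−0.41 to 0.25 with 1 library left out), LHCB2.3 (−0.43 to 0.54), LHCB3 (−0.31 to 0.071), CRD1 (−0.14 to 0.097) and CHLI1 (−0.11 to 0.055). Between runs LHCB1.3 turned with no filter (−0.019). The cause of these changes was not tested. With 3 libraries a group and 1 per group in the second run, a change under 1.5-fold was within the interval for many of these genes, and values in the second run alone have no replicate check.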
